A study of Mus musculus with 20 samples.

Results

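RNA bound to polysomes was set beside whole-cell RNA of undeleted mouse embryonic stem cells (ESCs), using 2 polysome libraries and 2 total RNA libraries, 4 of the 20 libraries of the series. They were taken as every library titled as wild type (WT) polysome or WT total, replicates 1 and 2. The question was which RNA classes and which mRNAs made up a larger or smaller part of polysome RNA than of whole-cell RNA. The study used ESCs in which Cnot3, a subunit of the CCR4-NOT deadenylase, can be deleted by adding 4-hydroxytamoxifen (4OHT). The design text defines WT as such conditional cells given DMSO and knockout (KO) as the same cells given 0.1 µM 4OHT, and total and polysome RNA were collected at day 3. The WT total and polysome libraries nevertheless carry the source label E14Tg2a ESCs and the strain label C57BL/6, so the labels leave unclear whether these cells held the conditional allele. Whole-cell RNA of WT cells at day 2, taken from the actinomycin D experiment at 0 h and labelled Cnot3 cKO ESCs, served as another whole-cell reference, again with 2 libraries. All libraries were made with an Illumina TruSeq RNA kit. Selection of RNA by its poly(A) tail was not given in the sources used here. Both libraries of a group are called biological replicates, with no statement of separate lines or clones, so p-values measure only the spread between these samples.

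Polysomes are mRNAs that carry several ribosomes, and they are separated from free RNA by sedimentation. An mRNA is usually read from a capped 5′ end and ends in a poly(A) tail, which also serves as the handle by which many library protocols pick mRNA out of total RNA. Replication-dependent histone mRNAs are the known exception, since they end in a conserved stem-loop in place of the tail. RNAs made by RNA polymerase III, small nuclear and small nucleolar RNAs and ribosomal RNAs also lack long tails, and most of them work without being translated.

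The stem-loop of histone mRNAs is shown first because histone genes gave some of the widest gaps between total WT and polysome WT. A motif of the arm GGNNCT, the loop TTTN and the arm AGNNCC in direct succession was searched on the transcript strand only in the 150 bases after the coding part of the longest coding isoform (GENCODE M21, GRCm38). It was found in 32 of 50 replication-dependent histone genes (64.0%), and 12 of the 18 without it have fewer than 60 annotated bases there. Of 10 histone genes on a list of replication-independent ones 2 held it (H2afx, and Hist3h2a, which is also among the 50). Of 15411 tested mRNAs outside the replication-dependent class 4 did (0.026%), namely H2afx again, the histone genes H2bfm and Hist2h3c2, and Lrrc75b. In the sites below, 5′ to 3′ on the transcript strand, capitals mark the motif. They lie at chr13:23555782-23555807 (plus strand, Hist1h1d), chr13:23761885-23761910 (minus, Hist1h3a), chr3:96220413-96220438 (minus, Hist2h2ac), chr13:23751567-23751592 (plus, Hist1h2ab), chr13:23757361-23757386 (plus, Hist1h4b) and chr9:44335235-44335260 (plus, H2afx).
Hist1h1d: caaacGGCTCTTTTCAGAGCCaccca
Hist1h3a: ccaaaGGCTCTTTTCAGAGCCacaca
Hist2h2ac: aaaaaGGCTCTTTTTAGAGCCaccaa
Hist1h2ab: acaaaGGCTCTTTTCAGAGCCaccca
Hist1h4b: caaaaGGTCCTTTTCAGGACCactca
H2afx: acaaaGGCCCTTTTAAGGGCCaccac

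Ribosomal protein mRNAs and other translation factor mRNAs are known for a 5′ terminal oligopyrimidine tract, a C at the cap followed by a run of C and T. Their starts are shown because several of their mRNAs were among the lowest in polysome WT against total WT. Against 0 h the 84 ribosomal protein mRNAs had a median log2 difference of 0.14. A C followed by at least 4 pyrimidines stood at the RefSeq start (GRCm38.p6) of 14 of 63 ribosomal protein genes with a promoter entry (22.2%), of 5 of 15 on a list of other genes known for such starts (33.3%) and of 365 of 12046 tested mRNAs (3.03%). The lines give 18 bases from the annotated start, 5′ to 3′ on the gene's strand, with the pyrimidine run in capitals. They lie at chr4:86857350-86857367 (minus, Rps6), chr3:90213631-90213648 (minus, Rps27), chr7:118116130-118116147 (minus, Rps15a), chr11:48800360-48800377 (plus, Rack1) and chrX:94212634-94212651 (minus, Eif2s3x).
Rps6: CTCTTTTTCgtgacgcct
Rps27: CCTTTCCggcggtgacga
Rps15a: CTTCCCTCgccggtgagt
Rack1: CTTTTTCTCCacagggtc
Eif2s3x: CTTTTCTCTCCgagcaag

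Many ribosomal protein genes also have near-identical processed copies in the genome, and 1 such pair is shown because reads from it cannot be told apart over most of its length. Rpl19 (chr11:98028394-98028453, plus, coding bases 161 to 220) and the pseudogene Rpl19-ps11 (chr8:19493096-19493155, plus) differ at 1 of 588 coding bases. Capitals mark that base, which is G31A counted from 1 at the 5′ end of the stretch, with the base of Rpl19 first.
Rpl19: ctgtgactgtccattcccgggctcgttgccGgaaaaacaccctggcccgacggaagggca
Rpl19-ps11: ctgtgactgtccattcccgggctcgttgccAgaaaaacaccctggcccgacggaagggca

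The libraries differed in depth and in composition. Reads assigned to genes numbered 35170012 and 29594468 in total WT, 13832829 and 16688555 in polysome WT and 26412230 and 28318919 at 0 h. Reads outside annotated genes came to 19.8% and 20.7% of reads on or between genes in total WT, 7.05% and 12.9% in polysome WT, and 7.22% and 6.70% at 0 h. Reads tallied as matching several places numbered 15515077 and 11179637 in the total WT files and 0 in the polysome WT and 0 h files. The 2 polysome WT libraries were further apart than the others, with a chi-square per degree of freedom of 70.8 against 11.2 in total WT and 2.17 at 0 h. Polysome WT replicate 2 held more mitochondrial mRNA than replicate 1, at 5.02% and 1.38% of gene reads. Defining ESC markers had reads in all 4 libraries, and their summed level was 7387 and 6787 CPM (read counts scaled to library size) in total WT and 7883 and 6993 CPM in polysome WT. Of 12 feeder fibroblast markers 10 passed the filter on low counts, and their summed level was 315 and 327 CPM in total WT and 173 and 163 CPM in polysome WT, where Dcn, Col3a1, Postn and Lum had no read. Vim, whose levels are given below, made up most of that sum in each library. The sum of the other markers was not lower in polysome WT. In the test described below 2 of the 10 were higher and 5 lower. In bulk RNA, fewer cells of a type and less RNA per cell cannot be told apart.

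RNA classes were described first, as shares of the reads assigned to genes. Messenger RNA from the nuclear genome, histones apart, took 89.6% and 91.0% of reads in total WT and 97.3% and 93.3% in polysome WT, so the groups did not overlap. Small, tailless and noncoding classes together took 7.22% and 6.09% in total WT and 0.436% and 0.759% in polysome WT. The same classes took 0.468% and 0.458% at 0 h, which lies within the range of the polysome libraries although the 0 h libraries hold whole-cell RNA. Library kind and polysome fraction therefore cannot be told apart for these classes in the comparison of polysome WT with total WT. With 2 libraries against 2, an exact permutation test of a share cannot give a two-sided p below 0.33.

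**Figure D1:**
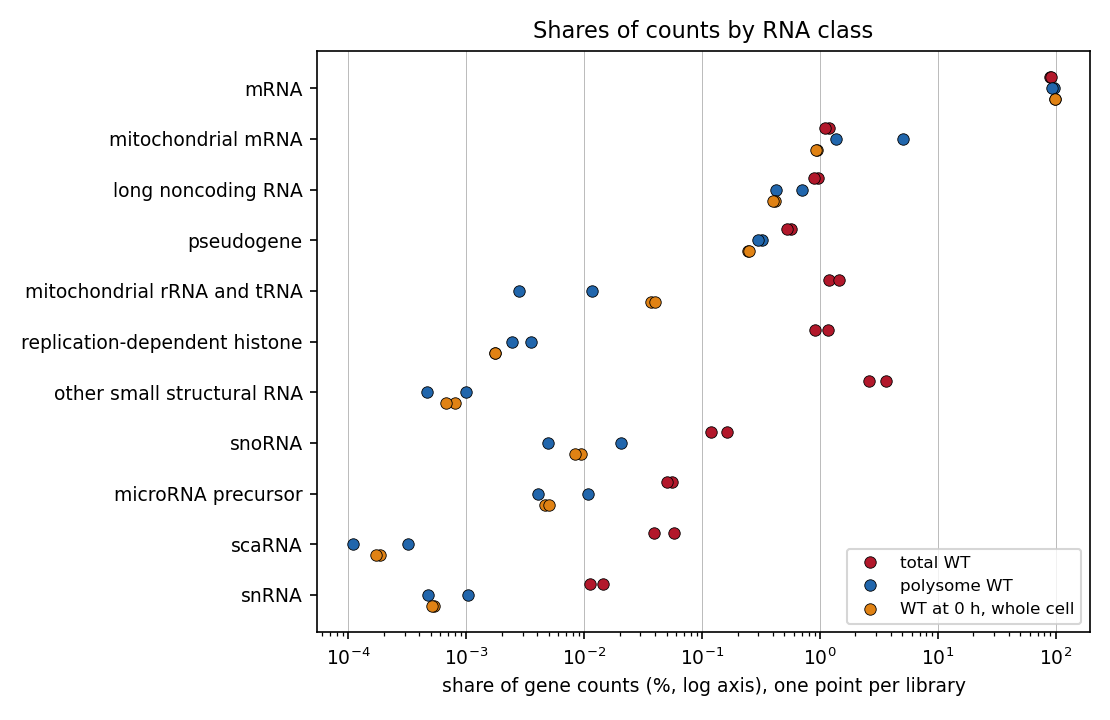
Share of gene reads (percent, log axis) taken by each RNA class in the 2 total WT, 2 polysome WT and 2 WT 0 h libraries, 1 point per library. Histone mRNAs took 1.16% and 0.909% in total WT, against 0.00247% and 0.00355% in polysome WT and 0.00174% and 0.00177% at 0 h.

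The widest gaps among classes were in small structural RNAs, which took 3.61% and 2.62% of reads in total WT and 0.000463% and 0.00100% in polysome WT. Mitochondrial ribosomal and transfer RNAs took 1.19% and 1.45% in total WT and 0.00280% and 0.0116% in polysome WT. Nearly all of those reads in total WT lay on the 2 ribosomal RNAs, which are given with the transfer RNAs below. Small nucleolar RNAs, which guide modification of ribosomal RNA, took 0.162% and 0.119% against 0.00492% and 0.0205%. Small RNAs of Cajal bodies, which guide the same kind of modification on spliceosomal RNAs, took 0.0580% and 0.0388% against 0.000108% and 0.000318%. Spliceosomal small nuclear RNAs took 0.0146% and 0.0111% against 0.000477% and 0.00104%. In each of these classes both polysome libraries lay below both total libraries.

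Long noncoding RNAs (lncRNAs) and pseudogenes moved less than the small classes. The lncRNA share was 0.965% and 0.895% in total WT, 0.420% and 0.710% in polysome WT and 0.414% and 0.401% at 0 h. Reads assigned to pseudogenes took 0.562% and 0.530% in total WT, 0.324% and 0.298% in polysome WT and 0.246% and 0.251% at 0 h. Mitochondrially encoded mRNA took 1.20% and 1.1% in total WT and 1.38% and 5.02% in polysome WT. Cytosolic ribosomal protein mRNAs, counted within mRNA, took 8.12% and 6.98% in total WT, 2.38% and 2.70% in polysome WT and 2.15% in each 0 h library.

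Single genes were then tested with edgeR's quasi-likelihood test on the counts, with Benjamini-Hochberg adjustment over the 18303 genes that passed the filter on low counts. Log2 differences are polysome minus total, with the standard error (SE) of the fit, on TMM-scaled counts, so they describe composition and not the amount of RNA per cell. At an adjusted p under 0.05, 5302 genes were higher and 4895 lower in polysome WT, which is 29.0% and 26.7%, or 55.7% together, with a median log2 difference of 0.05. With library totals alone as the scale the median of all genes lay at 0.33 and the split was 7591 higher against 3784 lower. Of 15419 mRNAs tested, 4967 were higher and 3374 lower (32.2% and 21.9%, 54.1% together, median 0.14), or 7145 and 2422 with library totals alone. At least 1 log2 unit separated 2216 mRNAs on the higher and 2110 on the lower side. Both polysome WT libraries lay above both total WT libraries for 38.2% of all genes tested and below both for 37.5%. For mRNAs these shares were 42.3% and 32.6%, so groups that do not overlap are common here. Library kind and polysome fraction cannot be told apart for mRNAs in this comparison either. Against 0 h, described below, 29.2% of 14281 mRNAs passed in either direction.

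Counts of called genes were then taken by class. Of 48 replication-dependent histone genes tested, 0 were higher and 47 lower, with a median log2 difference of -9.33. All 18 of the small nuclear RNA genes that passed the test, of 19 tested, were lower, as were 118 of 148 small nucleolar RNA genes, 11 of 13 Cajal body RNA genes and 21 of 22 other small RNA genes, with medians of -6.73, -2.79, -7.22 and -8.03. Of 53 microRNA precursor genes 46 were lower and 1 higher (median -4.31). Of 822 lncRNA genes 93 were higher and 304 lower (median -0.58), and of 936 pseudogenes 138 were higher and 545 lower (median -1.61). A further 795 gene IDs not in the annotation used for names gave 94 higher and 399 lower (median -1.22). Mitochondrial ribosomal and transfer RNA genes gave 4 higher and 3 lower of 7, and all 4 of the higher ones had no read in total WT.

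Small RNAs transcribed by RNA polymerase III were at or near 0 in polysome libraries. Rn7sk (ENSMUSG00000065037, chr9:78175303-78175633), the 7SK RNA that holds the elongation factor P-TEFb inactive, had 807846 and 505683 reads in total WT and 0 and 1 in polysome WT. Rpph1 (ENSMUSG00000092837, chr14:50807449-50807767), the RNA of ribonuclease P, which trims transfer RNA precursors, had 423316 and 237751 reads in total WT and 0 in both polysome libraries. These 2 genes alone took 2.3% and 1.71% (Rn7sk) and 1.20% and 0.803% (Rpph1) of gene reads in total WT. Against a floor of 3 reads over both polysome libraries together, which serves for every such bound here, Rpph1 was at least 125360-fold lower in polysome WT.

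Other RNAs on a list of RNA polymerase III and other small structural RNAs, not all made by that polymerase, followed the same order. Rmrp, the RNA of ribonuclease MRP, stood at 22.2 and 20.7 CPM in total WT and had 0 and 5 reads in polysome WT, a log2 difference of -7.00. Terc, the template RNA of telomerase, stood at 26.0 and 19.9 CPM in total WT and had 1 and 0 reads in polysome WT. The Y RNAs Rny1 and Rny3 and the vault RNA Vaultrc5 had no read in polysome WT, which puts them at least 15.2-fold, 28.0-fold and 5.54-fold lower. Of the 10 RNAs on the list 9 were tested and all 9 were lower. At 0 h Rn7sk had 11 and 12 reads and Rpph1 39 and 33, so both were scarce in those whole-cell libraries too. Floors and ratios of this kind cover counting error only.

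Named by the largest log2 differences among noncoding genes was also Rn7s6, a gene of the 7SL RNA of the signal recognition particle, which is not on that list. It stood at 1140 and 1027 CPM in total WT and had no read in polysome WT, at least 11122-fold lower. Others were Rprl3, a copy of the ribonuclease P RNA gene, Rnu3a, the U3 RNA that guides cleavage of the ribosomal RNA precursor, and Rps3a2, a pseudogene of a ribosomal protein. They stood at 117 and 105, 93.7 and 62.2, and 57.7 and 61.6 CPM in total WT, had no read in polysome WT, and were at least 1139-fold, 800-fold and 612-fold lower. On the higher side the 6 named were all pseudogenes. Gm8420 (chr1:51940664-51941261) stood at 0.281 and 0.241 CPM in total WT, 44.7 and 45.3 CPM in polysome WT and 40.04 and 39.2 CPM at 0 h. The other 5 were Gm11645, Gm12901, Gm14094, Gm14414 and Gm2531, with log2 differences between 6.04 and 8.32. The polysome and 0 h levels of Gm8420 lay close together and both lay far above total WT.

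**Figure D2:**
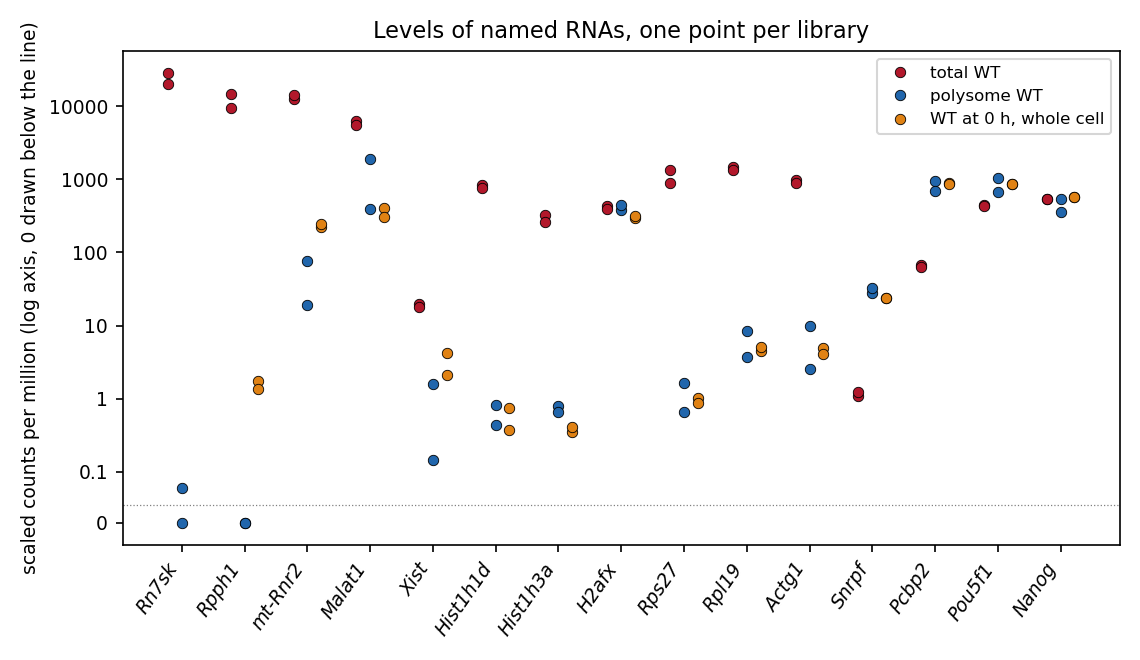
Levels (TMM-scaled CPM, log axis) of named genes in each total WT, polysome WT and WT 0 h library, 1 point per library. Points below the dotted line are at 0, and Rn7sk at 0 h, which did not pass the filter there, is not drawn. Rpph1 had no read in polysome WT and 1.72 and 1.35 CPM at 0 h, while Snrpf lay at 1.09 and 1.25 CPM in total WT and 27.8 and 32.5 in polysome WT.

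Mitochondrial ribosomal RNAs were low in polysomes. The small subunit RNA mt-Rnr1 stood at 2185 and 2724 CPM in total WT and at 5.42 and 27 CPM in polysome WT (log2 difference -7.22 ± 0.69 SE). The large subunit RNA mt-Rnr2 stood at 12513 and 14466 CPM against 18.9 and 77.0 CPM (-8.13 ± 0.66). Groups did not overlap for either RNA. At 0 h they stood at 185 and 202 CPM and at 221 and 242 CPM, also above both polysome libraries. Of 5 mitochondrial transfer RNA genes tested, mt-Ta, mt-Tc, mt-Tl1 and mt-Ts2 had no read in total WT and were higher in polysome WT, with 8 and 21, 12 and 37, 8 and 27, and 7 and 8 reads there. The proline transfer RNA mt-Tp was lower, with 175 and 112 reads in total WT and 3 and 19 in polysome WT (-2.91). At 0 h mt-Tl1 had 162 and 156 reads and mt-Tp 224 and 232.

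Mitochondrially encoded mRNAs split in 2 directions. Of 13 such genes 11 were tested, 5 were higher and 4 lower in polysome WT (median 0.41). Cytochrome b mRNA, mt-Cytb, stood at 1524 and 1327 CPM in total WT and at 4343 and 15280 CPM in polysome WT (2.78 ± 0.46, adjusted p 0.00053, edgeR). The complex I subunit mRNAs mt-Nd5 (480 and 414 CPM to 1996 and 4793), mt-Nd6 (155 and 114 to 661 and 1862), mt-Nd4 (log2 difference 3.04) and mt-Nd2 (2.53) were higher as well. Polysome replicate 2 lay above replicate 1 for each of these, and without it mt-Nd2 differed by 1.12. The 4 lower were mt-Co2 (-4.00), mt-Co3 (-4.51), mt-Atp6 (-3.42) and mt-Nd3, which had no read in polysome WT and was at least 15.2-fold lower. At least 98% of the 50-base stretches of those 4 also occur in transcripts of other annotated genes. mt-Co1 (10407 and 9331 CPM against 5347 and 20884) and mt-Nd1 (1718 and 1475 against 333 and 1860) did not pass, and for both the polysome libraries lay on either side of total WT. Where mitochondrial transcripts sedimented was not measured.

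Long noncoding RNAs known to stay in the nucleus were listed apart. Of 10 tested, 6 were lower and 3 higher (median -1.16). Xist, the RNA that coats the inactive X chromosome, had 19.5 and 18.2 CPM in total WT and 0.145 and 1.59 CPM in polysome WT, a log2 difference of -4.34. Malat1 (chr19:5795690-5802672), an abundant RNA of nuclear speckles, stood at 6349 and 5535 CPM in total WT and at 396 and 1907 CPM in polysome WT (-2.37 ± 0.63, adjusted p 0.0085). Both RNAs were lower in each polysome library than in each total library. At 0 h Malat1 stood at 402 and 305 CPM, at or below the polysome libraries.

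These calls leaned on single libraries. Without polysome WT replicate 1 the difference of Malat1 was -1.62 with an adjusted p of 0.126 (edgeR), and without total WT replicate 1 or 2 the list held 0 higher with 3 or 4 lower. Neat1, the scaffold of paraspeckles, stood at 181 and 165 CPM against 38.2 and 118 CPM (-1.15, adjusted p 0.031), and at -0.53 with an adjusted p of 0.150 without polysome WT replicate 1. The antisense and imprinted transcripts Airn (-3.52), Nespas (-1.84) and Tsix (-1.18) were the remaining 3 lower. Meg3, an imprinted RNA of the Dlk1 locus, stood at 54.6 and 48.5 CPM in total WT and 68.2 and 182 CPM in polysome WT (1.28, adjusted p 0.026). Without polysome WT replicate 2 its difference was 0.41, with an adjusted p of 0.511. Lncenc1 (0.44) and Ftx (0.91) were the other 2 higher and Firre (0.50) did not pass. Airn, Tsix, Lncenc1 and Ftx lost their calls when 1 total WT library was left out.

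Noncoding hosts of small nucleolar RNAs are spliced, tailed RNAs, several of which are known to be bound by ribosomes. Of 7 tested 1 was higher, Snhg17 with 48.7 and 45.8 CPM against 56.0 and 118 CPM (0.88, adjusted p 0.019, edgeR), and 0 were lower (median 0.16). Gas5 stood at 250 and 183 CPM in total WT and at 125 and 361 CPM in polysome WT, so the polysome libraries lay on either side. Zfas1 (0.20), Snhg12 (0.16), Snhg20 (-0.10), Snhg15 (-0.15) and Epb41l4aos (-0.60) did not pass. The list gave 5 higher without polysome WT replicate 1 and 6 lower without replicate 2, and Snhg17 lost its call when either total WT library was left out.

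The miR-290 cluster encodes the main microRNAs of mouse ESCs, and its hairpins are cut from a nuclear primary transcript. Mature sequences are shown because, against total WT, the genes of the cluster that passed the test and those that did not split by their place in it. They are from RefSeq (GRCm38.p6, plus strand), with the seed (bases 2 to 8) in capitals. They lie at chr7:3218674-3218697 (290a), chr7:3218968-3218989 (291a), chr7:3220691-3220712 (294) and chr7:3220815-3220837 (295), and 7 of 9 listed genes had an entry. The last 3 share 1 seed.
miR-290a-3p: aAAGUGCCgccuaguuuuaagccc
miR-291a-3p: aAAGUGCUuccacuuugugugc
miR-294-3p: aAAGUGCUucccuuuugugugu
miR-295-3p: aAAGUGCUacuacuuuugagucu

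Reads on these genes come from the precursor and not from the mature microRNA. Mir290a stood at 80.3 and 45.8 CPM in total WT and at 0.578 and 1.18 CPM in polysome WT (log2 difference -6.12). Mir291a went from 32 and 20.1 CPM to 0.723 and 2.18 (-4.11), and Mir292 from 47.0 and 34.2 to 0.795 and 2.77 (-4.45). All 3 were below total WT in both polysome libraries, as were Mir291b (-3.44) and Mir293 (-2.29). Mir295 stood at 17.8 and 13.3 CPM in total WT and at 6.22 and 26.1 CPM in polysome WT (0.07), and neither it nor Mir294 (0.88) passed. With Mir17hg (-0.95) and Mir22hg (0.59), which did not pass either, the list of 9 gave 0 higher and 5 lower (median -2.29). The 5 lower against total WT lie before Mir294 and Mir295 in the cluster. Against 0 h all 9 were tested, and 2 were higher and 0 lower in polysome WT (median 0.84, lowest 0.18).

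Genes that had no read at all in polysome WT were counted with the depth in mind. Of 14666 genes for which total WT predicted at least 30 reads in the 2 polysome libraries, 157 had none. By class they comprised 25 of 13021 mRNAs, 47 of 489 IDs not in the annotation and 33 of 522 pseudogenes. They also held 11 of 121 small nucleolar RNAs, 11 of 16 other small RNAs, 10 of 386 lncRNAs and 8 of 26 microRNA precursors. The rest were 7 of 10 small nuclear RNAs, 3 of 48 histones, 1 of 10 Cajal body RNAs and mt-Nd3 of 11 mitochondrial mRNAs. At 0 h, 77 of the 157 also had no read and 153 had fewer than 10. In the opposite direction, 10 of 14685 genes had no read in total WT, among them the mitochondrial transfer RNA genes mt-Ta, mt-Tc and mt-Tl1.

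Replication-dependent histone mRNAs, which supply nucleosomes in S phase, were nearly absent from polysome libraries. Their summed level was 14381 and 10806 CPM in total WT and 24.7 and 35 CPM in polysome WT. Linker histone Hist1h1d stood at 830 and 757 CPM in total WT and at 0.434 and 0.825 CPM in polysome WT (-10.25 ± 0.28 SE, adjusted p 3.4e-09, edgeR). Core histones behaved alike, with Hist1h2ab at 227 and 219 CPM against 0.145 and 0.177 (-10.38), Hist2h2ac at 196 and 167 against 0.217 and 0.177 (-9.82) and Hist1h3a at 327 and 260 against 0.795 and 0.648 (-8.67). Polysome values lay below total values in both libraries for all 48 histone genes tested, as they did for 37.5% of all genes tested. At 0 h Hist1h3a stood at 0.354 and 0.410 CPM, so these mRNAs were scarce in that whole-cell RNA as well.

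Histone genes with and without a stem-loop found were set side by side by size of difference. Of the 18 without it, 12 have fewer than 60 annotated bases after the coding part. The comparison therefore cannot decide whether genes that lack a stem-loop differ. The 32 with the motif had a median log2 difference of -9.58 (range -11.73 to -0.90) and the 16 tested without it had a median of -9.05 (-12.83 to -1.77). Hist1h4b, whose site is printed above, stood at 1.23 and 1.09 CPM in total WT and 0.506 and 0.354 CPM in polysome WT (-1.44). Hist3h2a, at 1.48 and 1.41 against 0.434 and 1.06 CPM, was the gene that did not pass (-0.90, adjusted p 0.097). Against 0 h, 16 of these genes were tested, 2 were higher and 0 lower (median 0.70).

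Replication-independent histone mRNAs mostly carry poly(A) tails and gave another picture against total WT. Of 10 tested 4 were higher and 3 lower (median 0.08), beside 32.2% and 21.9% of all mRNAs tested. The macroH2A mRNA H2afy went from 106 and 99.8 CPM in total WT to 266 and 294 in polysome WT (1.45), and the linker histone H1fx from 3.20 and 3.30 to 43.3 and 36.0 (3.61). H2afy2 (1.31) and H2afv (0.99) were the other 2 higher. The H2A.Z mRNA H2afz was lower at 815 and 694 CPM against 43.9 and 52.6 (-3.97), and 69.6% of its stretches occur in other genes' transcripts. H3.3 mRNAs H3f3a (-1.27) and H3f3b (1079 and 990 against 761 and 608 CPM, -0.60) were lower, the latter with an adjusted p of 0.074 without total WT replicate 1. H2afx, which can end at a stem-loop or in a tail, stood at 438 and 392 CPM in total WT and 385 and 440 in polysome WT (-0.01, adjusted p 0.966, edgeR), with groups overlapping. Its motif ends 822 bases before the end of the annotated transcript. H2afj (0.17) and Hist3h2a, which is on both histone lists, did not pass. Against 0 h, 10 were tested, and 5 were higher and 0 lower in polysome WT (median 0.52, lowest 0.20).

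Cytosolic ribosomal protein mRNAs were the largest group of abundant mRNAs that were low in polysome libraries. Of 84 tested, 2 were higher and 73 lower (median -2.92). Rps27 (chr3:90212522-90213651) stood at 1358 and 900 CPM in total WT and 0.651 and 1.65 CPM in polysome WT (-9.88 ± 0.39 SE). Rpl19 stood at 1500 and 1344 CPM against 3.76 and 8.37 (-7.85 ± 0.35), and Rps6, the target of S6 kinase, at 832 and 742 against 4.34 and 8.78 (-6.89). Rpsa (-8.68), Rps29 (-8.17) and Rps12 (-7.50) were likewise among the 12 lowest mRNAs, and Rps23 (-6.58) and Rpl17 (-6.17) were among the 4 of smallest adjusted p. Polysome libraries lay below total libraries in each of these mRNAs, as they did for 32.6% of mRNAs tested. At 0 h Rps27 stood at 1.02 and 0.861 CPM, within the range of the polysome libraries.

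Size of difference went with the part of the mRNA that other annotated genes share. For each gene the percent of 50-base stretches of its longest coding isoform that also occur in a transcript of another gene was computed. The 42 ribosomal protein mRNAs with at least 50% shared had a median of -4.03 and 40 were lower. The 32 with 10% to 50% had a median of -2.47 and 30 were lower. The 10 with under 10% had a median of -0.27, with 3 lower and 1 higher. Against 0 h the medians of the same 3 groups were 0.15, 0.13 and 0.18.

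**Figure D3:**
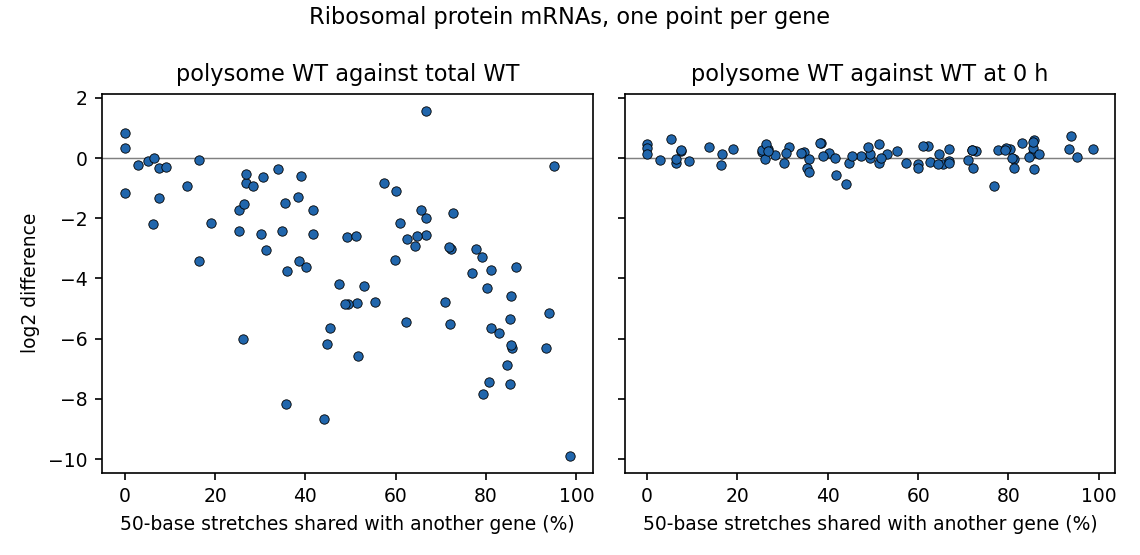
Log2 difference of each of 84 cytosolic ribosomal protein mRNAs (y axis) against the percent of its 50-base stretches that occur in transcripts of other genes (x axis), for polysome WT against total WT (left) and against WT 0 h (right). On the left the median is -4.03 at 50% and above and -0.27 under 10%, and on the right the medians lie between 0.13 and 0.18 in all 3 ranges.

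The 10 ribosomal protein mRNAs with the fewest shared stretches differed among themselves. Rpl8 stood at 2413 and 2231 CPM in total WT and 2453 and 2156 in polysome WT (-0.01), and Rps3 at 2193 and 1900 against 1669 and 1788 (-0.24). Neither passed the test. Rps15a was lower at 1391 and 1060 against 251 and 291 CPM (-2.18), as were Rps20 at 1418 and 1011 against 416 and 563 (-1.31) and Rpl39l at 90.4 and 67.5 against 35.9 and 35.1 (-1.15). Rpl22 (-0.10), Rpl10l (-0.32) and Rpl7l1 (-0.30) did not pass. Rpl3l, a muscle paralog of Rpl3, was higher at 1.65 and 1.85 against 3.62 and 2.71 CPM (0.85). The pyrimidine run is present at the annotated start of Rps15a and also at that of Rps27, at very different log2 differences.

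Copies of Rpl19 differed in opposite directions. Rpl19-ps11, the near-identical copy printed above, had 602 and 495 reads in total WT and 33 and 35 in polysome WT (-3.21). Rpl19-ps4, a copy that differs from Rpl19 at 61 of 588 coding bases, had 100 and 68 reads in total WT and 1514 and 1572 in polysome WT (5.01, adjusted p 1.21e-08, chosen after its values were seen). Over all mRNAs tested, those with more than 50% shared stretches had a median of -0.86 and 51.5% were lower, and those with none had a median of 0.22. Against 0 h the former had a median of 0.11. How reads that match several genes were handled when each set of counts was made was not tested.

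The list of other mRNAs known for oligopyrimidine starts gave 2 higher and 13 lower of 21 (median -0.97). Here too the difference went with shared stretches. The 3 with at least 50% shared had a median of -1.79 and all were lower. The 8 with 10% to 50% had a median of -1.31, with 7 lower and 1 higher. The 10 with under 10% had a median of -0.14, with 3 lower and 1 higher. The lower ones named next each have at least 10% shared. Hnrnpa1, a splicing repressor, went from 1043 and 971 CPM in total WT to 32.8 and 32.3 in polysome WT (-4.95). Eif2s3x, the gamma subunit of eIF2, went from 272 and 249 to 24.7 and 13.2 (-3.79). The elongation factor subunit Eef1g (-3.05) and the translationally controlled tumor protein Tpt1 (-2.30) were lower as well. The run was not found at the annotated starts of Hnrnpa1 and Tpt1. Rack1, a ribosome-bound scaffold protein whose pyrimidine start is printed above, differed by 0.02. Against 0 h, 0 were higher and 10 lower (median -0.48), or 3 lower with either 0 h library left out.

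Translation initiation factors, listed as 40 mRNAs, gave 6 higher and 13 lower (median -0.05), beside 32.2% and 21.9% of all mRNAs. The helicase Eif4a1 went from 3798 and 3646 CPM to 357 and 250 (-3.62), and the loosely bound eIF3 subunit gene Eif3j1 differed by -6.70 with its paralog Eif3j2 at -1.79. These are the 3 listed factors with at least 50% shared stretches, and against 0 h their median was -0.36. The 28 factors with under 10% shared had a median of 0.06 against total WT, with 4 higher and 7 lower. The inhibitory binding protein Eif4ebp2 was higher by 2.01. Leaving out polysome WT replicate 2 gave 19 higher and 14 lower. Aminoacyl-tRNA synthetases, which charge transfer RNAs, gave 1 higher and 7 lower of 20 (median -0.27), with Eprs at 834 and 859 CPM against 305 and 246 (-1.62), Lars at -1.36, Mars at -0.65 and Vars at -0.54. With library totals alone this list gave 2 higher and 2 lower with a median of 0.02, and without polysome WT replicate 1 it gave 1 higher and 16 lower.

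The mRNAs with the largest differences outside these lists were named by rule, 12 at each end. At the low end stood Gm10800 (1427 and 2065 CPM against 0.217 and 0.295, -12.69) and Gm10801 (-10.84), both predicted genes, and Zscan4f and Zscan4c of the 2-cell-stage Zscan4 family. Zscan4f had 22.3 and 21 CPM in total WT and 0 and 1 reads in polysome WT, and Zscan4c differed by -7.12. Cytoplasmic gamma-actin Actg1 (chr11:120345690-120348542) stood at 966 and 893 CPM against 2.53 and 9.79 (-7.21), and at 4.86 and 4.10 CPM at 0 h. Between 17% and 99% of the stretches of these 12 mRNAs occur in other genes' transcripts, ribosomal protein mRNAs included. Zscan4 members are near-identical copies of each other, so their separate values are uncertain.

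At the high end the gaps were smaller and the levels lower. Snrpf (chr10:93583029-93589706), a core protein of spliceosomal snRNPs, stood at 1.09 and 1.25 CPM in total WT and 27.8 and 32.5 in polysome WT (4.69 ± 0.20 SE, adjusted p 2.5e-08, edgeR). The nucleoside diphosphate kinase Nme2 went from 1.90 and 1.61 to 33.5 and 31 CPM (4.19), and the poly(C)-binding protein Pcbp2 from 66.9 and 62.4 to 962 and 697 (3.68). At 0 h Snrpf stood at 24 and 23.8 CPM and Pcbp2 at 883 and 865 CPM, both near the polysome libraries.

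Parvb (chr15:84232043-84315688), beta-parvin of integrin adhesions, has no shared stretch and went from 13.9 and 14 to 237 and 153 CPM (3.80 ± 0.22). At 0 h it stood at 114 and 109 CPM, between total WT and polysome WT. The small GTPase Rras went from 3.41 and 3.62 to 34.1 and 32.4 CPM (3.24), with 15.2 and 16.5 CPM at 0 h. Mbd6, a methyl-CpG-binding domain protein, went from 6.64 and 6.19 to 70.1 and 65.1 CPM (3.40). The rest of the 12 were H1fx, given above, and Zfp385a, Atn1, Pianp, Creb3l1 and Zfp395, with log2 differences from 3.17 to 3.37. As the rule for naming asks, both polysome libraries lay above both total libraries for these 12.

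**Figure D4:**
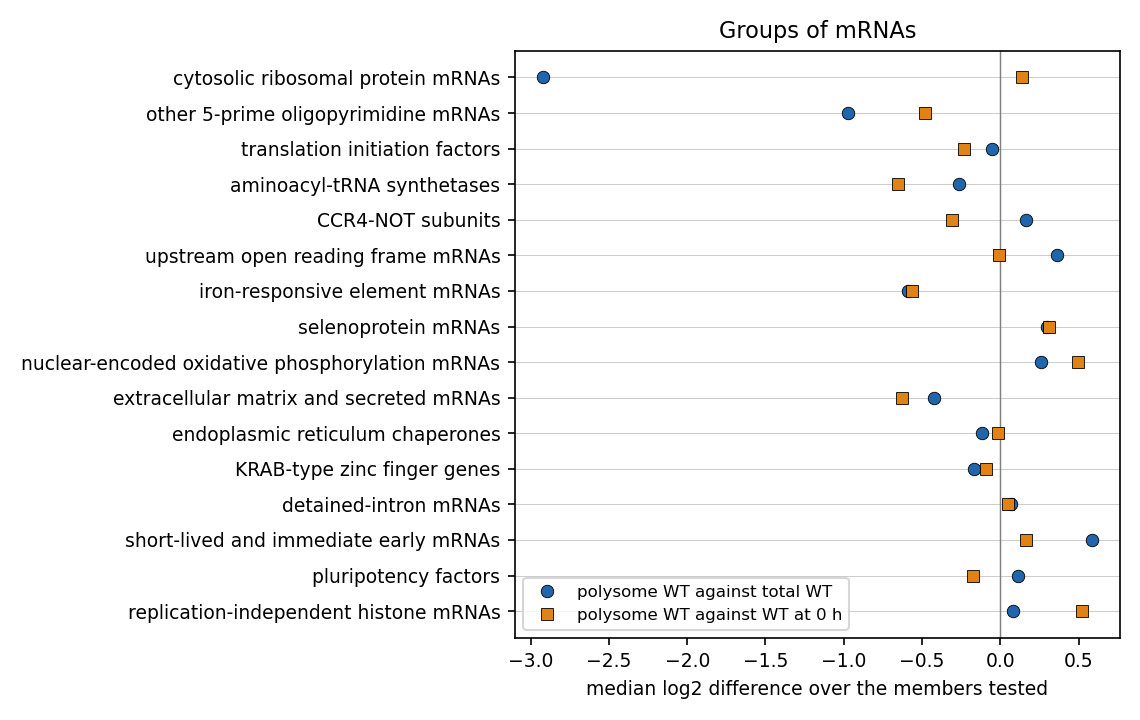
Median log2 difference over the tested members of 16 mRNA lists (x axis), for polysome WT against total WT (circles) and against WT 0 h (squares), with a line at 0. Ribosomal protein mRNAs lie at -2.92 and 0.14, and the other 15 lists lie between -0.97 and 0.59.

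Pluripotency factors gave 8 higher and 6 lower of 26 (median 0.12, beside 0.14 over all mRNAs). Of all mRNAs tested 32.2% were higher and 21.9% lower. Nanog stood at 545 and 536 CPM in total WT and 542 and 355 in polysome WT (-0.27), and Sox2 at 694 and 598 against 915 and 711 (0.33), and neither passed. Pou5f1, which encodes OCT4, was higher at 445 and 437 against 1044 and 678 CPM (0.96, adjusted p 0.0042, edgeR), with an adjusted p of 0.0512 without total WT replicate 2. At 0 h Pou5f1 stood at 871 and 867 CPM, inside the range of the polysome libraries.

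The co-activator of AKT Tcl1 went from 13.1 and 12.3 to 89.0 and 73.0 CPM (2.67) and the chromatin factor Utf1 from 149 and 153 to 465 and 407 (1.53). Dppa2 (-1.62) and the methylcytosine dioxygenase Tet1 (578 and 577 to 233 and 222 CPM, -1.35) were lower. Of the CCR4-NOT subunits, which remove poly(A) tails, 3 of 11 were higher and 1 lower (median 0.16). Over all mRNAs tested these shares were 32.2% and 21.9%. Cnot3 itself stood at 46.2 and 47.1 CPM in total WT and 95.6 and 78.0 in polysome WT (0.90). Both polysome libraries lay above both total libraries, as they did for 42.3% of mRNAs tested. Cnot8 (0.53) and Cnot6 (0.42) were higher, but lost the call when either total WT library was left out. The scaffold Cnot1 was lower at 672 and 713 against 306 and 192 CPM (-1.48). The other subunits did not pass, with log2 differences from -0.18 for Cnot10 to 0.34 for the catalytic subunit Cnot7.

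The housekeeping mRNAs commonly used as references were not level. Gapdh stood at 2645 and 2530 CPM in total WT and 147 and 107 in polysome WT (-4.35), with 90.4% of its stretches shared. Actb stood at 5496 and 5090 against 2013 and 1201 CPM (-1.72). At 0 h Gapdh stood at 237 and 246 CPM.

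Messenger RNAs known for regulated translation were looked at by mechanism. Of 18 with upstream open reading frames 8 were higher and 5 lower (median 0.36). Over all mRNAs tested 32.2% were higher and 21.9% lower. Atf4, the transcription factor of the integrated stress response, went from 82.3 and 77.3 to 336 and 221 CPM (1.80), and its target Ddit3 (CHOP) from 8.36 and 7.63 to 28.1 and 32.1 (1.91). Amd1 (-3.10) and Amd2 (-3.99), which encode the polyamine enzyme S-adenosylmethionine decarboxylase, were lower. At 0 h Atf4 stood at 156 and 160 CPM.

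Messenger RNAs with iron-responsive elements, whose translation or stability follows iron through IRP proteins, gave 2 higher and 4 lower of 10 (median -0.59). Shares over all mRNAs tested were 32.2% higher and 21.9% lower. Ferritin light chain Ftl1 went from 1710 and 1567 to 107 and 152 CPM (-3.66), with 90.6% shared stretches. Ferritin heavy chain Fth1 stood at 339 and 334 CPM in total WT and 147 and 243 in polysome WT (-0.79, adjusted p 0.015), and its adjusted p was 0.0506 without total WT replicate 1. At 0 h Fth1 stood at 583 and 614 CPM, above both polysome libraries by a log2 difference of -1.64 (adjusted p 0.0016). The heme synthesis enzyme Alas2 (-2.98) was lower too. Epas1 (0.79) and Cdc14a (0.62) were higher, and Cdc14a lost the call when either total WT library was left out. The transferrin receptor Tfrc (-0.59), ferroportin Slc40a1 (-0.62), Slc11a2 (0.27) and Cdc42bpa (-0.24) did not pass.

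Immediate early and other short-lived mRNAs gave 12 higher and 3 lower of 26 tested (median 0.59). For this list and the next 2, the shares over all mRNAs tested were 32.2% higher and 21.9% lower. Egr1 went from 18.2 and 21.9 to 88.9 and 93.8 CPM (2.19), and the decay factor Zfp36l1 (1.61), the MAP kinase phosphatase Dusp1 (1.53) and Btg2 (1.13) were higher too. Selenoprotein mRNAs, which read a UGA codon as selenocysteine, gave 6 higher and 4 lower of 17 (median 0.30), with Selenom (1.60) and Selenon (1.43) higher and the glutathione peroxidases Gpx1 (-0.98) and Gpx4 (-1.19) lower. A list of 25 mRNAs known for retained introns gave 3 higher and 6 lower (median 0.07), with Tra2b at -1.56, Srsf3 at -1.10 and Ddx5 at -1.06.

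Nuclear-encoded mRNAs of oxidative phosphorylation gave 28 higher and 18 lower of 77 (median 0.26), beside 32.2% and 21.9% of all mRNAs. The 47 with under 10% shared stretches gave 19 higher and 3 lower (median 0.34), and the 5 with at least 50% gave 0 higher and 4 lower (median -4.26). Among members chosen after their values were seen, Ndufa4 stood at 278 and 195 CPM against 323 and 437 (0.69) and the complex I subunit Ndufb8 at 64.5 and 50.1 against 119 and 142 (1.19). Among the lowest were Atp5g2 (-5.87), Cox7c (-4.36), Atp5l (-4.26) and Atp5g1 (-3.61), subunits of ATP synthase and cytochrome oxidase. Without total WT replicate 2 the list gave 10 higher and 21 lower (median 0.07).

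Messenger RNAs translated at the endoplasmic reticulum gave mixed counts, beside 32.2% higher and 21.9% lower over all mRNAs tested. Of 32 for secreted and matrix proteins 6 were higher and 13 lower (median -0.42). Bmp4 went from 24.3 and 21.4 to 66.8 and 92.7 CPM (1.80) and Npc2, a lysosomal cholesterol carrier, from 94.3 and 83.7 to 200 and 347 (1.62). Laminin Lama1 (325 and 349 to 81.5 and 116 CPM, -1.77) and fibrillin Fbn1 (-2.26) were lower. Of 18 chaperones of this compartment 4 were higher and 3 lower (median -0.12), and Hspa5, which encodes BiP, went from 951 and 962 to 318 and 638 CPM (-1.0). Sdf2l1 (1.17) and Ppib (0.81) were higher and Pdia4 (-0.91) lower. Ppib lost the call without total WT replicate 2.

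Zinc finger genes of the KRAB type gave 69 higher and 112 lower of 336 tested (median -0.17), beside 32.2% and 21.9% of all mRNAs. Zfp987 (-4.99), Zfp600 (-3.65), Zfp988 (-3.38) and Zfp989 (-2.89) were among the lower, and this family holds many near-identical members, so single values are uncertain. Marker lists of other cell types gave 1 higher and 7 lower of 12 for primitive endoderm (median -0.65), 3 and 4 of 12 for trophectoderm (-0.60), 1 and 4 of 10 for neuroectoderm and mesoderm (-0.61), and 2 and 5 of 10 for feeder fibroblasts (-1.10). Among them the collagen Col4a1 stood at 225 and 239 CPM in total WT and 52.5 and 113 in polysome WT (-1.48), the neural progenitor filament Nes at 38.2 and 40.1 against 11.1 and 9.73 (-1.91), and the fibroblast filament Vim at 283 and 292 against 119 and 91.5 (-1.45). ESC markers gave 3 higher and 1 lower of 10 (0.16), with the nuclear receptor Esrrb higher (413 and 414 against 981 and 641 CPM, 0.97) and Zfp42, or Rex1, lower (1324 and 1257 against 1014 and 795, -0.51). The part these cells take in any result was not tested.

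Coding length tended to be shorter in mRNAs that were higher than in those that were lower, with overlap. Quartiles were 732 and 1788.75 bases in the higher and 1134 and 3301.5 bases in the lower. Coding parts had a median of 1149 bases in 4964 higher mRNAs, 1968 bases in 3374 lower mRNAs and 1416 bases over 15411 tested. To keep shared reads out, mRNAs with no shared stretch were then binned by coding length. Their median log2 difference was 0.54 up to 500 bases, 0.53 from 500 to 1000, 0.25 from 1000 to 2000, -0.06 from 2000 to 4000 and -0.54 above 4000 bases. The same bins gave 0.47, 0.46, 0.17, -0.18 and -0.73 in KO cells, whose libraries share no sample with those of WT. Total and polysome libraries of KO differ in kind as those of WT do. Across 8366 such mRNAs Spearman's rho between coding length and log2 difference was -0.319 in WT. Genes are not independent replicates and the libraries are shared by all of them, so no p is given.

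**Figure D5:**
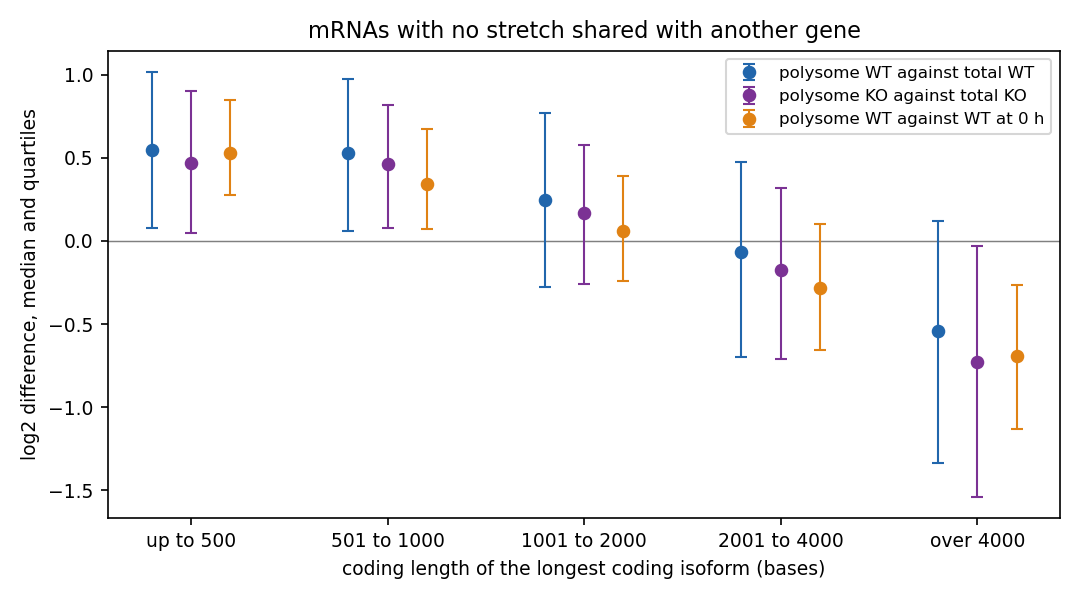
Median log2 difference (points) with quartiles (bars) by coding length of mRNAs without shared stretches, for polysome against total RNA in WT and KO and for polysome WT against WT 0 h. In all 3 comparisons the median falls with length, in WT from 0.54 at up to 500 bases to -0.54 above 4000 bases.

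Base composition was described in the same way. The GC content of the transcript had a median of 53.7% in higher and 47.2% in lower mRNAs, beside 50.8% over all, with a rho of 0.346 in WT and 0.121 against 0 h, where coding length over all mRNAs gave -0.243 and -0.514. Over mRNAs without shared stretches the rho of GC was 0.33 in WT. The 5′ untranslated part had a median of 169 bases in higher, lower and all mRNAs. The 3′ untranslated part had medians of 841 and 929.5 bases and the exon number medians of 8 and 11.

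Long mRNAs for structural proteins were examples of the low side in both whole-cell references, and were chosen after their values were seen. Flna (chrX:74223461-74249820), which encodes filamin A over 7941 coding bases, stood at 684 and 727 CPM in total WT, 117 and 133 in polysome WT and 910 and 873 at 0 h. Its log2 difference was -2.50 ± 0.23 against total WT and -2.85 ± 0.23 against 0 h, and the groups did not overlap in either. Other long mRNAs were the spliceosome core Prpf8 (-2.20 and -2.81), spectrin Sptbn1 (-2.66 and -2.82), dynein heavy chain Dync1h1 (-2.23 and -2.68) and the ribosome assembly ATPase Mdn1 with 16767 coding bases (-2.37 and -2.46). Titin, Ttn, stood at 138 and 144 CPM in total WT and 3.62 and 3.60 in polysome WT (-5.29 and -2.77).

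Examples of the high side in both were chosen in the same way, by rank against 0 h. B2m (chr2:122147686-122153083), the light chain of MHC class I with 357 coding bases, stood at 18.2 and 16.0 CPM in total WT, 48.7 and 85.5 in polysome WT and 14 and 14.2 at 0 h. Its log2 differences were 1.97 ± 0.23 against total WT and 2.24 ± 0.24 against 0 h. Others were Patl2, an oocyte RNA-binding protein with 1587 coding bases (2.51 and 2.18), the chemokine Cxcl16 (2.43 and 2.01), the oxidase subunit Cyba (1.88 and 2.10), the fatty acid carrier Fabp3 (1.33 and 2.16) and the GTPase Rab25 (3.37 and 1.74). For B2m each polysome library lay above all 4 whole-cell libraries.

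The comparison of polysome WT with WT at 0 h was made because the 0 h libraries resembled polysome libraries in the small and tailless classes. It shares the polysome libraries with the comparison above, so values are only set side by side, and the cells differ in day, experiment and source label. Levels at 0 h were scaled in this second fit, where 1 read in polysome WT replicate 1 was worth 0.0711 CPM, beside 0.0723 CPM in the first. In polysome WT 2071 of 15743 genes were higher and 2388 lower (13.2% and 15.2%, 28.3% together), and with library totals alone 4533 were higher and 1458 lower. Of 14281 mRNAs 1880 were higher and 2296 lower (13.2% and 16.1%, 29.2% together). Without 1 of the libraries the counts of genes ran from 255 to 4791 higher and from 981 to 3872 lower, so single calls in this comparison are less secure.

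Class counts against 0 h were as follows. Of 55 small nucleolar RNA genes 0 passed the test in either direction (edgeR, 6 at an unadjusted p under 0.05, median 0.41), and of 474 lncRNA genes 61 were higher and 19 lower (median 0.47). Of 461 pseudogenes 66 were higher and 37 lower (median 0.20). Mitochondrial ribosomal and transfer RNA genes gave 0 higher and 5 lower of 7 (median -2.28), and the 3 other small RNA genes tested were all lower. Mitochondrial mRNAs gave 5 higher and 0 lower of 7 (median 1.63), with polysome replicate 2 above replicate 1.

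Among mRNA lists, ribosomal protein mRNAs gave 2 higher and 3 lower of 84 (median 0.14), with 49 higher and 9 lower without polysome WT replicate 1 and 9 higher and 14 lower without replicate 2. Oxidative phosphorylation mRNAs gave 42 higher and 2 lower of 77 (median 0.49), but 6 or 8 higher without a 0 h library. Ndufa4 differed by 1.01 here and by 0.69 against total WT. Aminoacyl-tRNA synthetases gave 0 higher and 12 lower of 20 (median -0.65), with Eprs at -1.81 and Lars at -1.68, and 6 lower without a 0 h library. Initiation factors gave 3 higher and 10 lower (median -0.23), and matrix and secreted mRNAs 2 higher and 14 lower (median -0.63). The higher mRNAs had a median coding length of 765 bases and the lower 2751 bases. In the bins of coding length the mRNAs without shared stretches had medians from 0.53 up to 500 bases to -0.69 above 4000 bases, and over 7742 of them rho was -0.531.

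Cells treated with 4OHT were used as a repeat of the fractionation in separate libraries. Total KO libraries, like total WT, held reads tallied as matching several places (10594507 and 10341991), and polysome KO libraries held 0. Library kind and polysome fraction therefore cannot be told apart in this repeat either. In polysome KO against total KO, 4412 genes were higher and 5256 lower (24.1% and 28.7%, 52.8% together), or 6808 and 4034 with library totals alone. Of mRNAs 4184 were higher and 3564 lower (27.1% and 23.1%, 50.2% together). Of mRNAs higher in WT polysomes 3409 were higher in KO polysomes too, which is 68.6% of the WT and 81.5% of the KO calls. Of those lower 2675 were shared, 79.3% of the WT and 75.1% of the KO calls, and 10 in each direction were called the opposite way. Across 15419 mRNAs Spearman's rho between both sets of log2 differences was 0.830. Replication-dependent histones gave 0 higher and 47 lower in KO (median -9.07) and ribosomal protein mRNAs 2 higher and 72 lower (median -2.80).

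The difference between WT and KO contrasts was tested in the same fit. Of 18303 genes 1 was higher and 1 lower in WT than in KO (0.00546% each, 0.0109% together), the former the only one of 15419 mRNAs (0.00649%), and 2304 had an unadjusted p under 0.05. Without polysome WT replicate 1 the same test called 3111 higher and 1848 lower. On simulated counts with a planted log2 difference of 1 it recovered 25% of 96 planted genes, and 71.9% at a log2 of 2, with 9.71% false among calls. Unlike the data, those counts had equal means in all groups apart from the planted genes, and equal spread in all libraries. Fgf1, a growth factor mRNA, stood at 6.15 and 5.71 CPM in total WT and 6.43 and 9.84 in polysome WT. Its contrast was 0.46 in WT and -2.44 in KO, a difference of 2.90 (adjusted p 0.028, edgeR). Linker histone Hist1h1c stood at 559 and 500 CPM in total WT and 5.28 and 4.60 in polysome WT, and its contrast was -6.75 in WT and -4.43 in KO, a difference of -2.31 (adjusted p 0.028).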

How the data were processed

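The deposited files hold counts, whole numbers of reads per gene made by the authors for each library. Alignment was to mm9 by STAR 2.3.0e and counting by HTSeq, per the submitters' processing notes. HTSeq's version and strand setting, and its treatment of reads that match several places, were not given in the sources used here. Ensembl gene IDs numbered 37991, of which 32919 matched GENCODE M21 (GRCm38), the source of symbols, classes, features and positions. HTSeq's 5 tallies of unassigned reads entered no test. Reads outside genes are given as a percent of gene reads, reads outside genes and reads on more than 1 gene together. The 8 files of later actinomycin D times were not used.

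Genes were tested with edgeR 4.0.16 (limma 3.58.1, R 4.3.3) using filterByExpr with a minimum count of 10, TMM scaling and robust quasi-likelihood tests. The adjusted p threshold was 0.05. One fit held the total and polysome libraries of WT and KO and another the polysome and 0 h libraries of WT and KO, and the KO libraries entered for the estimate of spread. Python 3.11.15 with pandas 2.3.3, numpy 2.4.6, scipy 1.17.1 and matplotlib 3.10.9 did the rest. On simulated counts the comparison of polysome WT with total WT recovered 58.3% of 96 genes planted at a log2 of 1 and 89.6% of 96 at a log2 of 2, over 17491 genes, with 5.96% false among calls. The comparison with 0 h recovered 66.3% of 98 and 91.9% of 99 over 15420 genes, with 5.45% false among calls.

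Named mRNAs were the 12 highest and 12 lowest log2 differences past the threshold with an average log2 CPM of at least 3 and groups that did not overlap. Noncoding genes were the 6 highest and 6 lowest, with an average of at least 1. For the 28 gene lists, lists of up to 13 genes were described whole or by examples and range, and others by up to 4 genes of smallest adjusted p. The mRNAs Cnot3, Pou5f1, Sox2, Nanog, Actb, Gapdh, Atf4 and Fth1 and the noncoding Malat1, Neat1, Xist and Rn7sk were always named. The comparison, members and lists were chosen with earlier results of these data known. Alternatives were library totals, RLE and mRNA-based scaling, no filter, a filter of 1 CPM in 2 libraries, DESeq2 1.42.0, a replicate block, a fit restricted to the 4 libraries compared, fits of mRNAs only and leaving out each library. A fit of mRNAs without shared stretches was added after seeing the data. A few members of the lists are counted but not reported by name here.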

Additional observations from a re-analysis of the deposited data

Results flagged for a closer look

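For 2 genes the polysome-total contrast differed between WT and KO cells in the test of the difference itself. For Fgf1 the WT contrast minus the KO contrast was 2.90 on the log2 scale (SE 0.33, adjusted p 0.028, edgeR). Its KO levels were 9.41 and 9.24 CPM in total RNA and 1.81 and 1.63 CPM in polysomes. For Hist1h1c the WT contrast minus the KO contrast was -2.31 (SE 0.25, adjusted p 0.028, edgeR). Its KO levels were 323 and 294 CPM in total RNA and 12.7 and 15.8 CPM in polysomes.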

How the results depend on the processing

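Counts of calls depended most on the scale, on which libraries were fitted and on single libraries. In polysome WT against total WT, 3316 genes and 3091 mRNAs were higher in a fit of only the 4 libraries compared, and a fit of mRNAs without shared stretches, which tests fewer genes, gave 2186 mRNAs higher and 1980 lower. In KO, library totals gave 6808 genes and 6483 mRNAs higher, and mRNAs without shared stretches 1899 higher and 1944 lower. The WT-KO difference gave 6 genes higher and 34 lower with no filter (mRNAs 6 and 32), 35 and 32 with DESeq2 (mRNAs 34 and 30), 0 mRNAs higher in a fit of mRNAs only and 1 mRNA lower in a fit of those without shared stretches. Against 0 h, library totals gave 4533 genes higher and 1458 lower (mRNAs 4172 and 1389), the 4-library fit 304 and 911 (mRNAs 258 and 879) and mRNAs without shared stretches 1126 and 1225. The cause was not tested.

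Leaving out 1 library at a time gave 3195 to 6388 genes and 2988 to 5948 mRNAs higher in WT, 3446 to 7318 genes and 2172 to 4918 mRNAs lower in KO, 0 to 3111 genes higher and 0 to 1848 lower for the WT-KO difference (mRNAs 0 to 2759 and 0 to 1796), and 255 to 4791 genes higher and 981 to 3872 lower against 0 h (mRNAs 222 to 4247 and 947 to 3727). A lone remaining library is assumed to vary like the other groups.

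With reads outside genes in the denominator, mean mRNA shares were 71.2% in total WT and 85.6% in polysome WT (90.3% and 95.3% without), histones 0.817% and mitochondrial mRNA 0.905% in total WT, lncRNA 0.733% in total WT, pseudogenes 0.431% and 0.279%, and ribosomal protein mRNAs 5.95% and 2.27%.

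Signs turned in 19 results. With library totals, which move the medians of all genes to 0.33 in WT and 0.31 against 0 h, the medians were 0.019 for synthetases in WT, and 0.017 for initiation factors and 0.076 for pluripotency factors against 0 h, all below those of all genes. Leaving out 1 library moved medians from -0.56 to 0.0079 for synthetases and from -0.035 to 0.26 for CCR4-NOT subunits in WT, and against 0 h from -0.36 to 1.1 for snoRNA hosts, -0.27 to 1.49 for primary microRNAs and -0.47 to 0.056 for initiation factors. For genes in WT it gave -0.79 to 0.76 for Gas5, -0.58 to 0.72 for Zfas1, -0.71 to 0.72 for Snhg12, -1.27 to 0.54 for Snhg20, -1.32 to 0.76 for Mir295, -0.87 to 1.11 for mt-Co1 and -0.69 to 0.77 for Kdr. Against 0 h it gave -0.60 to 0.92 for Gas5, -0.68 to 1.1 for Snhg20, -1.67 to 1.02 for Mir17hg, -1.15 to 0.97 for mt-Nd2, -0.41 to 0.35 for Gpx4 and -0.25 to 0.29 for Cnot9. All of these extremes came without polysome WT replicate 1 or 2.

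Same-numbered total and polysome WT libraries did not deviate together (r = -0.0796 over 10337 genes). Between other groups of that fit r ran from 0.0435 (polysome WT with total KO) to 0.330 (total WT with total KO). With 2 numbers per group and no label that a number marks a shared day, the numbers were not taken as pairs. With a replicate block the calls were 5386 higher and 4983 lower in WT, 4550 and 5368 in KO, 1 and 1 for their difference and 2038 and 2429 against 0 h.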
